A study of Mus musculus with 2 samples.

Results

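The 40 genes described here are a set of mouse DNA repair genes, chosen by symbol from the repair pathways. No measured value entered the rule, although the set was proposed with earlier results of these data known. All 40 were found among the 15526 gene symbols of the deposited liver table. They fall into 12 genes of base excision repair, 10 of nucleotide excision repair, 3 of mismatch repair, 9 of break repair, 3 of translesion synthesis and 3 others, namely Mgmt, Fancd2 and Tdp1.

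Liver RNA was sequenced from female NOG-TKm30 mice of 22 weeks of age that received acetoaceto-o-toluidide (AAOT) at 0.3% or, as control, at 0% for 4 weeks. AAOT is the acetoacetyl derivative of the aromatic amine o-toluidine and is used in making pigments. Each group is 1 library made from the mixed RNA of 3 mice, so no spread between mice can be given, no test of the treatment was possible and no p-value is printed. The labels do not say by which route AAOT was given.

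The labels give both groups the same genotype. NOG mice are immunodeficient through the scid mutation of Prkdc, which is 1 of the 40 genes, and the loss of a working Il2rg. The transgene, a mutant herpes simplex virus thymidine kinase, is driven by the mouse transthyretin enhancer and promoter, which is active in hepatocytes. The labels give C57BL as the strain background while the design text gives NOG, and the data do not settle which is meant.

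DNA repair is divided among pathways that recognise different kinds of damage. Base excision repair removes small altered bases such as oxidised, deaminated or alkylated ones, nucleotide excision repair cuts out bulky adducts of the kind that activated aromatic amines can leave, mismatch repair corrects replication errors, and break repair rejoins broken strands or copies them from a sister chromatid. Translesion polymerases copy past damage that is still in place. The liver activates many foreign chemicals to reactive forms, and its hepatocytes divide rarely.

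The control library held 18801241 reads assigned to genes and the AAOT library 16528533. The precursor ribosomal transcript Rn45s took 3.89% of the control reads and 4.70% of the AAOT reads. Values are CPM, read counts divided by library size and scaled by the authors, and 1 CPM stood for 18.6 reads in the control library and 16.7 in the AAOT library. The summed CPM of 10 hepatocyte markers was 129622 in control liver and 109338 in AAOT liver, 1.19-fold lower. All 10 were present, and 5 of them were counted as lower by the rule given next. The ratio was below 1 in 9 of the 10 and above 1 in 1, and ran from 0.612 to 1.20. The summed CPM of 8 stellate cell markers was 317 in control liver and 265 in AAOT liver, and that of 7 cholangiocyte markers was 46.3 and 36.3. Of the cholangiocyte sum, Spp1 alone held 34.4 and 26.3 CPM, and only Spp1 and Sox9 (7.32 and 6.93 CPM) reached a mean of 1 CPM. Kupffer cell markers summed to 426 and 443 CPM, endothelial markers to 428 and 422 CPM, and erythroid markers to 326 and 358 CPM, where Hbb-bs had 0 and 102 reads. Of 14 lymphocyte and natural killer cell markers 5 were listed, of which only Ptprc, a gene of all leukocytes, reached 1 CPM, at 9.42 and 8.66 CPM. Il2rg had 8 and 6 reads. Fewer cells of a type, less RNA per cell and a change in single marker genes cannot be told apart in whole liver. The part of these shifts in the values of the repair genes was not tested.

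A gene was counted as higher or lower in AAOT liver when its CPM was at least 25% higher or at least 20% lower (a ratio of 0.8 or less) and the exact 95% counting interval of the ratio did not include 1. Genes with a mean of at least 1 CPM over both pools were counted, and 38 of the 40 repair genes reached that level. Of these 38, 0 were counted as higher and 2, Mpg and Atr, as lower, which is 5.26%. Over all 12065 genes at that level, 987 (8.18%) were higher and 866 (7.18%) were lower, so the share of repair genes counted as lower lay near the background. A difference of at least 2-fold was seen in 0 of the 38 and in 264 (2.19%) of all genes. The intervals cover counting error only, which is smaller than the error of a comparison between groups of mice.

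The log2 ratios of the repair genes were less spread than those of genes at large, as a description of these 2 libraries. Their SD was 0.20, against 0.37 over all 12065 genes. Their median log2 ratio (with 0.1 CPM added to both values) was -0.08, against -0.01 over all genes. The ratio was below 1 in 25 of the 38 (65.8%) and in 52.2% of all genes. The interval included 1 in 32 of 38 (84.2%) and in 68.3% of all genes, but the repair genes were also measured less deeply, with a median level of 12.2 CPM against 17.9. The interval lay wholly within the size counted for 18.4% of the repair genes and 36.6% of all genes. It lay within 1.5-fold of equality on both sides for 28 of the 38 and within 2-fold for 36, so a difference of that size lies outside the counting interval of these genes. Of the 38, only Parp1 had an interval wholly above 1, and Mpg, Lig3, Ercc5, Atm and Atr had intervals wholly below 1. Under each of the 3 other scalings tried, the interval of Ercc5 included 1 and 4 remained below.

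The counts were also taken by expression level. Between 1 and 10 CPM, 0 of 16 repair genes were higher and 1 was lower, where 9.55% and 8.09% of 4304 genes were. Between 10 and 50 CPM, 0 of 20 were higher and 1 was lower, against 6.87% and 7.17% of 4731 genes, and the interval included 1 in 75% of the repair genes and 71.2% of all genes. The SD of the log2 ratios was 0.24 against 0.47 in the lower range and 0.16 against 0.28 in this one. The remaining pair, Ddb1 and Rev3l, lay at 50 CPM or more, and neither was counted, where 8.28% of 3030 genes were higher and 5.91% were lower.

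**Figure D1:**
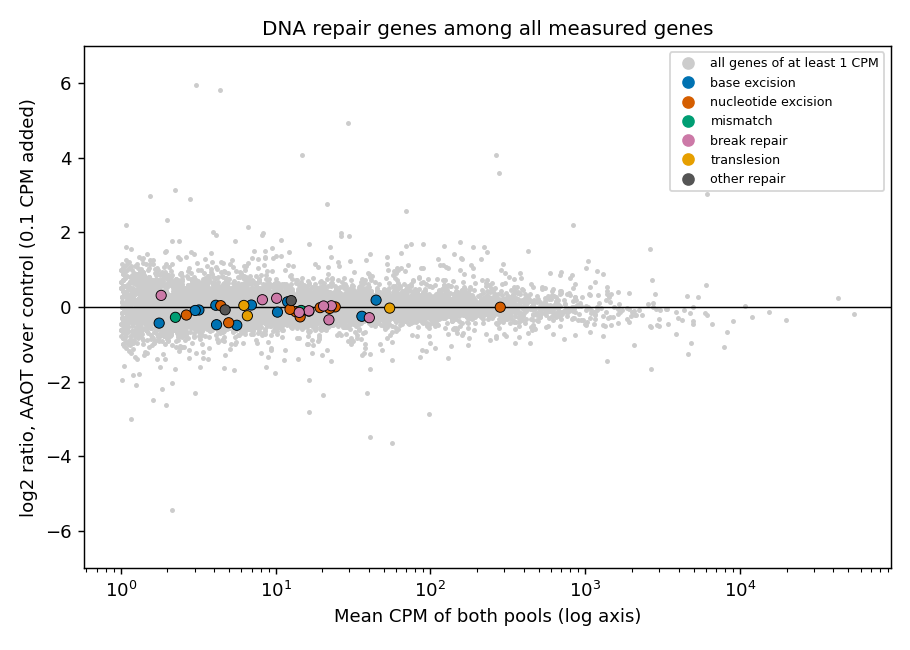
Each gene's log2 ratio of AAOT pool over control pool (vertical axis, 0.1 CPM added) against its mean CPM over both pools (horizontal log axis), with grey points for the 12065 genes at 1 CPM or more and coloured points for the 38 repair genes. The repair genes stay near the line of no difference, with an SD of 0.20 against 0.37 for all genes.

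Summed over the 40 genes, the level was 820.2 CPM in control liver and 794 CPM in AAOT liver, 1.03-fold lower (1.01 to 1.06). The authors' CPM of the whole table is itself 1.03-fold lower in the AAOT column, so the summed repair level takes nearly the same share of each column. Ddb1 alone held 282.7 CPM of the control sum and 282.1 CPM of the AAOT sum. Without Ddb1 the sums were 537.5 CPM in control liver and 512.4 CPM in AAOT liver. By pathway the median log2 ratio was -0.09 for 11 base excision genes, -0.05 for 10 nucleotide excision genes, -0.11 for 3 mismatch genes, 0.03 for 9 break repair genes and -0.03 for 3 translesion genes. The summed level of the break repair genes was 162 CPM in control liver and 151 CPM in AAOT liver, 1.08-fold lower (1.02 to 1.14), so that its sum and its median differ in sign at this expression floor. Without Atm and Atr the other 7 genes summed to 93.3 and 94.95 CPM, a ratio of 1.02 (0.950 to 1.09). On plain CPM of the recovered read totals the ratio of all 9 was 0.953 (0.903 to 1.005), which includes equality. In the other pathways the interval of the summed level included equality, at 1.03-fold lower (0.972 to 1.09) for base excision, 1.02-fold lower (0.985 to 1.05) for nucleotide excision, 1.08-fold lower (0.963 to 1.22) for mismatch and 1.03-fold lower (0.948 to 1.12) for translesion genes. The log2 ratio of the summed nucleotide excision level was -0.026 with Ddb1 and -0.082 without it.

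**Figure D2:**
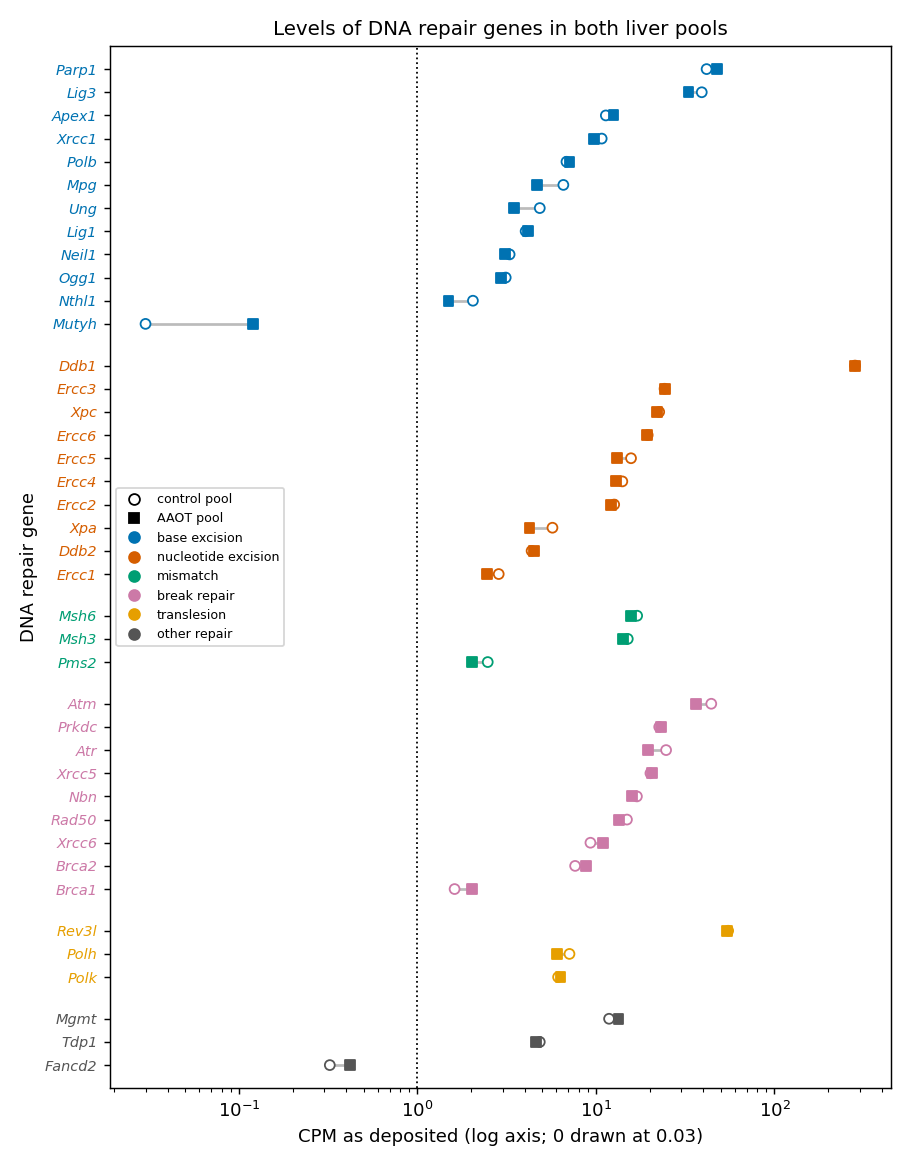
CPM as deposited (horizontal log axis) of each of the 40 repair genes in control liver (open circles) and AAOT liver (filled squares), grouped by pathway, with the dotted line at 1 CPM. The levels run from Mutyh with 0 control reads, drawn at the left edge, to Ddb1 at 283 CPM in control liver and 282 CPM in AAOT liver. Apart from those of Mutyh, the paired symbols lie close together.

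To set the levels of different genes side by side, CPM was divided by the length in kilobases of the longest GENCODE transcript. That transcript need not be the one expressed, and a long form lowers this measure, as may hold for Pms2 with 6157 bases. Ddb1 was highest by this measure, at 63.4 CPM per kb in control liver and 63.3 in AAOT liver. Parp1 followed at 10.8 and 12.3 CPM per kb, then Apex1 at 9.17 and 10.1, Ercc3 at 8.71 and 8.75, and Xrcc5 at 7.90 and 8.07. At the low end stood Pms2 at 0.402 and 0.330 CPM per kb, Brca1 at 0.246 and 0.309, Fancd2 at 0.0586 and 0.0759, and Mutyh at 0 and 0.0584. Brca2 was also low at 0.713 and 0.819 CPM per kb, as was the base excision gene Nthl1 at 0.982 and 0.717. What sets these levels was not tested. Of the 50-base stretches of each longest transcript, at least 94.4% were found in the transcripts of no other annotated gene. The lowest shares were in Pms2 and Msh6 (96.1%). Only exact matches were searched, so copies with single differences or without annotation were not looked for.

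In base excision repair, DNA glycosylases open the pathway by removing the altered base. Ogg1, which removes oxidised guanine, was at 3.12 CPM in control liver and 2.93 in AAOT liver, a ratio of 0.937 (0.628 to 1.40). Neil1, another glycosylase for oxidised bases, was at 3.28 and 3.11 CPM, a ratio of 0.946 (0.641 to 1.39). Nthl1, which removes oxidised pyrimidines, was at 2.05 and 1.49 CPM, 1.37-fold lower (0.806 to 2.37). For these glycosylases of oxidative damage no difference was detectable at this depth. Mutyh, which removes adenine placed opposite oxidised guanine, had 0 reads in the control library, which allows up to 0.162 CPM, and 2 reads in the AAOT library.

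Ung and Mpg remove deaminated and alkylated bases. Ung, which removes uracil from DNA, was at 4.85 CPM in control liver and 3.47 in AAOT liver, 1.40-fold lower (0.994 to 1.98), with an interval that just includes equality. Mpg, which removes alkylated purines, was at 6.57 CPM (122 reads) and 4.66 CPM (78 reads), 1.41-fold lower (1.05 to 1.90). It is the lowest ratio among the 38 genes, and with a 99% interval Mpg was not counted. Mpg lies on chromosome 11 (GRCm38, 32226505 to 32232702, plus strand), where its annotated range overlaps that of Nprl3 on the opposite strand. Overlap of exons was not looked at. Nprl3 was at 15.5 and 13.9 CPM, and although the libraries were directional, the sources do not say whether the counting used strand.

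After the base is removed, the strand is cut, filled and sealed. Apex1, the endonuclease that cuts at the empty site, was at 11.4 CPM in control liver and 12.5 in AAOT liver, a ratio of 1.10 (0.908 to 1.34). Polb, the polymerase that fills the gap, was at 6.84 and 7.11 CPM, a ratio of 1.04 (0.803 to 1.35). Xrcc1, the scaffold that holds the repair enzymes together, was at 10.8 and 9.80 CPM, 1.10-fold lower (0.889 to 1.36). None of these core enzymes differed beyond counting error. Of the break sensor and the ligases, Parp1 and Lig3 were measured more deeply than these, and Lig1, with 75 and 70 reads, less deeply. Parp1, which senses strand breaks and marks them with ADP-ribose chains, was at 41.7 CPM (774 reads) in control liver and 47.4 CPM (794 reads) in AAOT liver, a ratio of 1.14 (1.03 to 1.26). Lig3, the ligase partner of Xrcc1, was at 39.1 CPM (727 reads) and 33.0 CPM (552 reads), 1.19-fold lower (1.06 to 1.33). Lig1, the ligase that also joins Okazaki fragments in replication, was at 4.04 and 4.18 CPM, a ratio of 1.04 (0.737 to 1.45). Parp1 (chromosome 1, 180568891 to 180600999) and Lig3 (chromosome 11, 82781109 to 82804274), both on the plus strand, thus lay beyond counting error in opposite directions, both short of the size counted. Lig3 overlaps Rffl on the opposite strand, which was at 49.3 and 42.8 CPM.

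The stretch before the start of Apex1, chr14:50924874-50924948 on the plus strand of GRCm38 from RefSeq, is shown because this gene is transcribed away from a neighbour, as described further on. The capitals mark its CCAAT match.
Apex1: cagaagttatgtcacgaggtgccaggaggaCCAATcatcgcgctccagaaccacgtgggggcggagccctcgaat

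In nucleotide excision repair, damage is recognised either along the whole genome or where an RNA polymerase stalls. Ddb1, the adaptor of the CUL4 ubiquitin ligase that works with Ddb2 on damaged chromatin, was at 282.7 CPM (5249 reads) in control liver and 282.1 CPM (4721 reads) in AAOT liver, a ratio of 0.998 (0.959 to 1.04). It is the most deeply measured of the 40 genes, and its counting interval is the narrowest. Ddb2, which binds the lesion, was at 4.36 and 4.48 CPM, a ratio of 1.03 (0.740 to 1.42). Xpc, the sensor of distorted helices, was at 22.6 and 22.1 CPM, a ratio of 0.975 (0.845 to 1.12). Ercc6, which acts at stalled RNA polymerase, was at 19.5 and 19.3 CPM, a ratio of 0.990 (0.850 to 1.15). The interval of each of these recognition genes included equality, and of them Ddb2, with 81 and 75 reads, had the widest interval.

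The factors that open and cut the strand followed. Ercc3, a helicase of TFIIH, was at 24.2 and 24.3 CPM, a ratio of 1.004 (0.876 to 1.15), and Ercc2, the other TFIIH helicase, was at 12.7 and 12.1 CPM, a ratio of 0.959 (0.790 to 1.16). Xpa, which verifies the lesion, was at 5.71 CPM (106 reads) and 4.24 CPM (71 reads), 1.35-fold lower (0.987 to 1.84). Xpa had the lowest ratio of the pathway, with an interval that includes equality. Ercc5, the nuclease that cuts on the downstream side, was at 15.7 CPM (292 reads) and 13.1 CPM (219 reads), 1.20-fold lower (1.005 to 1.44). Ercc4, the catalytic part of the upstream nuclease, was at 14.1 and 12.9 CPM, a ratio of 0.918 (0.763 to 1.10), and its partner Ercc1 was at 2.85 and 2.45 CPM, 1.16-fold lower (0.760 to 1.80). Xpa, Ercc1, Ercc2, Ercc4 and Ercc5 had ratios below 1 and Ercc3 did not, where 52.2% of all genes had ratios below 1. Nothing is read from so small a count. Ercc5 alone of these factors had an interval without 1, on the authors' scaling only.

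The mismatch genes had ratios below 1 in 3 of 3, against 52.2% of all genes, each with an interval that includes equality. Msh6, which pairs in the complex that reads single mismatches, was at 17.0 CPM in control liver and 15.8 in AAOT liver, 1.08-fold lower (0.913 to 1.28). Msh3, which serves the complex for larger loops, was at 15.1 and 14.2 CPM, 1.06-fold lower (0.892 to 1.27). Pms2, of the endonuclease complex that follows, was at 2.48 and 2.03 CPM, 1.22-fold lower (0.766 to 1.96).

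Break repair is signalled by kinases of 1 family, of which Atm and Atr were lower beyond counting error and Prkdc was not. Atm, the kinase switched on by DNA breaks, was at 44.3 CPM (822 reads) in control liver and 36.3 CPM (608 reads) in AAOT liver, 1.22-fold lower (1.10 to 1.36), short of the size counted. Atm lies on chromosome 9 (GRCm38, 53437122 to 53536828, minus strand). Atr, the kinase that answers to single-stranded DNA at stalled forks, was at 24.7 CPM (459 reads) and 19.5 CPM (326 reads), 1.27-fold lower (1.10 to 1.47). Atr, also on chromosome 9 (95857597 to 95953217, plus strand), was counted as lower, but on plain CPM of the recovered read totals its ratio was 0.808, short of the size counted. The third kinase of this family, Prkdc, which is the catalytic subunit recruited by Ku, was at 22.6 CPM (420 reads) and 23.2 CPM (388 reads), a ratio of 1.03 (0.891 to 1.18). Reads of Prkdc do not show whether a working protein is made, and the scid mutation of NOG mice is known to end the protein early.

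The bases before the start of Atr, chr9:95857497-95857596 on the plus strand of GRCm38 from RefSeq, are shown because Atr was counted as lower, and the capitals mark its 10 CG pairs.
Atr: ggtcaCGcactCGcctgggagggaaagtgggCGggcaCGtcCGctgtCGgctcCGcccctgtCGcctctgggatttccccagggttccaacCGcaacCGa

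The Ku subunits, which bind broken ends, had ratios above 1. Xrcc6 was at 9.32 CPM in control liver and 10.995 in AAOT liver, a ratio of 1.18 (0.954 to 1.46), and Xrcc5 was at 20.2 and 20.6 CPM, a ratio of 1.02 (0.879 to 1.18). The subunits of the complex that holds ends together had ratios below 1, with Rad50 at 14.9 and 13.5 CPM, 1.10-fold lower (0.923 to 1.32), and Nbn at 17.0 and 15.8 CPM, a ratio of 0.934 (0.790 to 1.10). Of the genes of homologous recombination, Brca2, which acts in strand exchange, was at 7.65 and 8.78 CPM, a ratio of 1.15 (0.906 to 1.46). Brca1, which helps to choose this route, was at 1.62 CPM (30 reads) and 2.03 CPM (34 reads), a ratio of 1.26 (0.747 to 2.13). Each of these 6 intervals includes equality, and that of Brca1, with the fewest reads, is the widest of the 6.

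**Figure D3:**
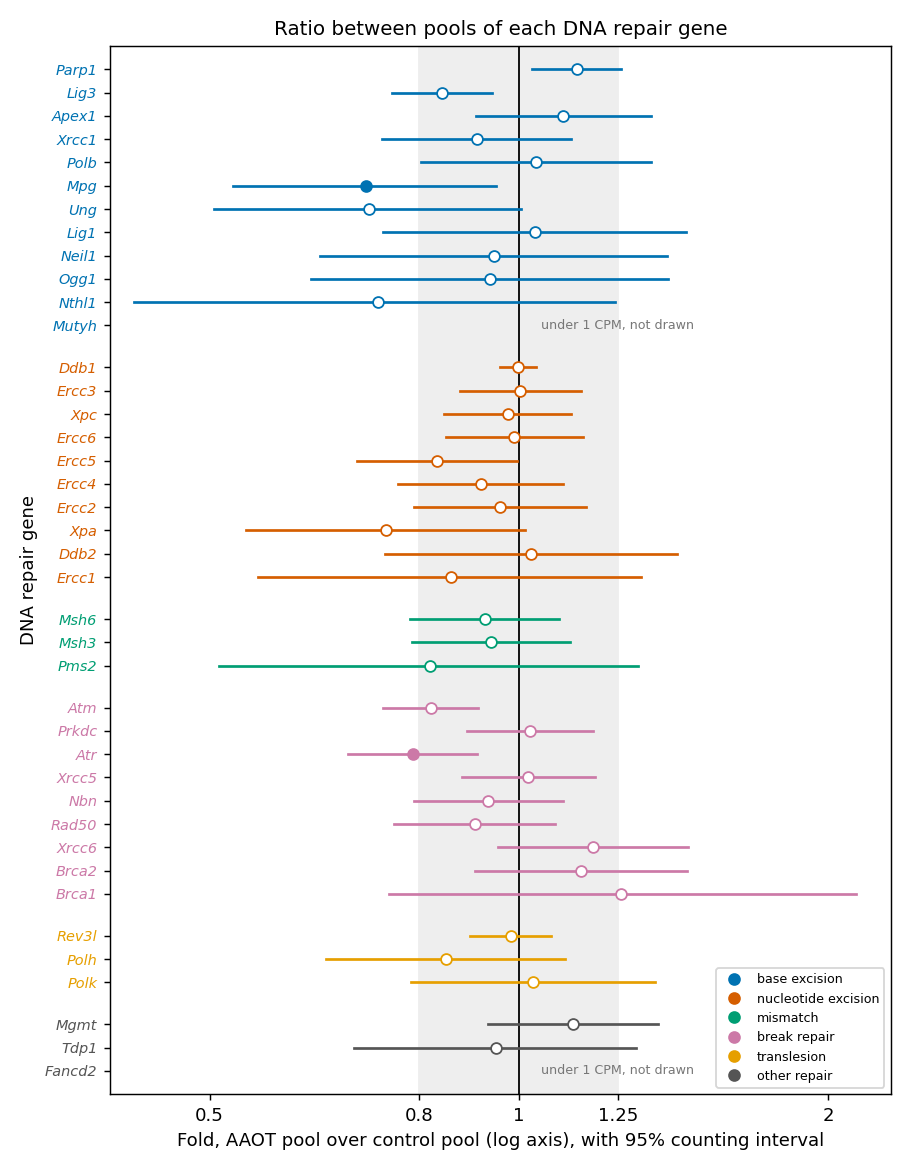
Ratio of AAOT pool over control pool (horizontal log axis) of each repair gene with its exact 95% counting interval, grouped by pathway, with grey shading over the ratios too small to be counted and filled points for genes counted as higher or lower. Mpg and Atr are the 2 filled points, both on the lower side, and 32 of the 38 intervals cross 1.

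Of the translesion polymerases, Rev3l, the catalytic subunit of polymerase zeta, was at 55.04 CPM (1022 reads) in control liver and 54.0 CPM (904 reads) in AAOT liver, a ratio of 0.982 (0.897 to 1.07). Polk, which copies past bulky adducts on guanine, was at 6.14 and 6.33 CPM, a ratio of 1.03 (0.784 to 1.36). Polh, which copies past pyrimidine dimers, was at 7.11 and 6.04 CPM, 1.18-fold lower (0.902 to 1.54). None of the 3 differed beyond counting error.

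Outside these pathways, Mgmt, which takes alkyl groups off guanine directly, was at 11.8 CPM in control liver and 13.4 in AAOT liver, a ratio of 1.13 (0.934 to 1.37). Tdp1, which frees DNA ends from trapped topoisomerase, was at 4.85 and 4.60 CPM, a ratio of 0.949 (0.691 to 1.30). Fancd2, the core of the crosslink repair pathway, had 6 reads in the control library and 7 in the AAOT library, a ratio of 1.29 (0.373 to 4.66), which bounds little. Mgmt and Mpg both act on alkylated bases and had ratios on opposite sides of 1.

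A second list of 90 further repair genes, of which 76 reached 1 CPM, extends the pathways. Of the 76, 3 were counted as higher (3.95%, against 8.18% of all genes) and 1 as lower (1.32%, against 7.18%). The interval included 1 in 68 of them (89.5%, against 68.3% of all genes), and the median log2 ratio was 0.01. Their summed level was 1155 CPM in control liver and 1154 in AAOT liver, a ratio of 0.9993 (0.980 to 1.02). The 3 higher genes were in the break repair part of the list, with 20 measured genes, and nothing is read from so small a count. Blm, a helicase that unwinds recombination intermediates, had 35 reads in the control library and 50 in the AAOT library, a ratio of 1.59 (1.01 to 2.52). Dclre1c, the Artemis nuclease that works with Prkdc on closed ends, was at 6.62 and 8.90 CPM, a ratio of 1.34 (1.05 to 1.72). Rbbp8, which starts the trimming of ends, was at 7.49 and 9.56 CPM, a ratio of 1.28 (1.01 to 1.61). With a 99% interval 0 of these 3 were counted. The lower gene, Xab2, a partner of Xpa, was at 19.9 and 15.9 CPM, a ratio of 0.7999 (0.681 to 0.939), at the edge of the size counted, and it was not counted under any of the 3 other scalings. Of the further base excision (12 measured), mismatch (7), translesion (9) and direct reversal or crosslink genes (11), 0 were counted in either direction.

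Beside the repair genes stand genes of DNA synthesis and the cell cycle. Of 16 genes of a proliferation list at 1 CPM or more 3 were counted as higher (18.75%, against 8.18% of all genes) and 0 as lower. Their summed level was 164.9 CPM in control liver and 212 in AAOT liver, a ratio of 1.28 (1.22 to 1.35), and most of that difference was Tyms. Without Tyms the sum was 91.6 and 98.4 CPM, a ratio of 1.07 (1.003 to 1.15). Without Tyms and Tk1 the ratio was 1.004 (0.930 to 1.09), and 6 of the 16 genes had ratios below 1. Tyms, which makes thymidylate, was at 73.3 and 113 CPM, a ratio of 1.55 (1.44 to 1.66). Tk1, the cellular thymidine kinase, was at 17.3 and 23.7 CPM, a ratio of 1.37 (1.18 to 1.59), and E2f1, a transcription factor of S phase, had 18 and 35 reads, a ratio of 2.16 (1.19 to 4.05). Whether the proliferation values have a part in the repair values was not tested.

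Many repair genes share their start region with another gene. In the GENCODE annotation, 15 of the 40 (37.5%) have a protein-coding gene that starts within 1000 bases on the opposite strand, against 16.1% of 11311 protein-coding genes at 1 CPM or more. In 11 of these pairs both genes reached 1 CPM, and the partners' ratios ran from 0.740 to 1.30. Of these 11 partners 1 was counted as higher and 0 as lower, where 8.18% and 7.18% of all genes at 1 CPM or more were, so nothing is read from the count. The higher partner was Tkfc, beside Ddb1, at 314 CPM in control liver and 410 in AAOT liver, a ratio of 1.30 (1.26 to 1.35). Tkfc, a kinase of fructose metabolism, and Ddb1 thus start beside each other, overlap as annotated on opposite strands and had intervals that do not overlap. Apex1 and its partner Osgep had ratios of 1.10 (0.908 to 1.34) and 1.11 (0.925 to 1.33). Atm was lower beyond counting error, while its partner Npat had a ratio of 0.941 (0.782 to 1.13), and the 2 intervals overlap. Prkdc and Mcm4, a subunit of the replicative helicase, had ratios of 1.03 (0.891 to 1.18) and 0.950 (0.707 to 1.27).

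**Figure D4:**
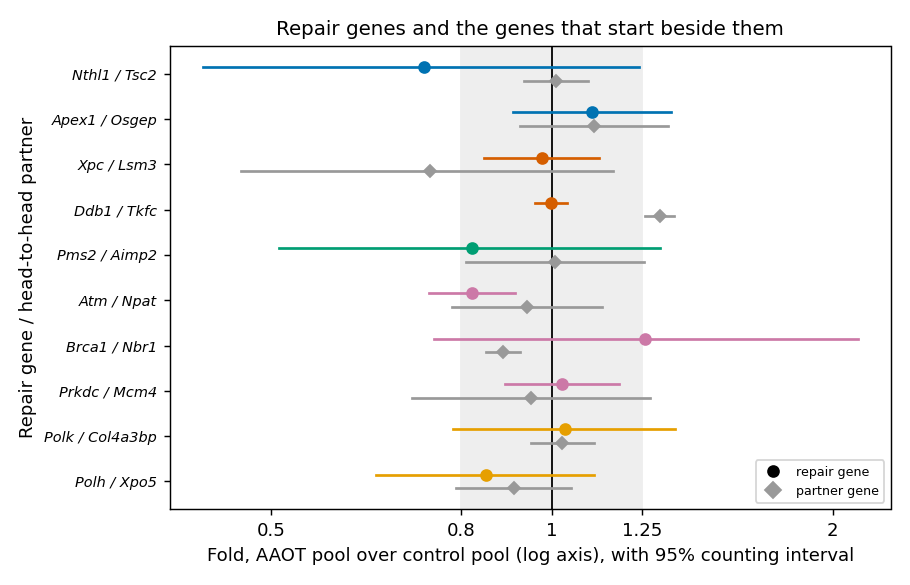
Ratio of AAOT pool over control pool with its exact 95% counting interval (horizontal log axis) for 10 repair genes (coloured circles) and the genes that start beside them on the opposite strand (grey diamonds), with grey shading over the ratios too small to be counted. Ddb1 at 0.998 and Tkfc at 1.30 are the only pair drawn whose intervals do not overlap.

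Promoter sequence, from 250 bases before to 50 after the start, was found in RefSeq (GRCm38.p6) for 31 of the 40 genes. The median ratio of observed to expected CG pairs was 0.893 in these 31, against 0.763 in 9209 promoters of genes at 1 CPM or more and 0.389 in all 27025. The median share of G and C was 58.7%, against 60.7% in promoters of measured genes. Exact letters were searched on both strands. The E2F letters TTTCCCGC or TTTGGCGC were found in 4 of 31 (12.9%), namely Brca2, Msh3, Msh6 and Xrcc6, against 2.96% of promoters of measured genes. CCAAT was found in 51.6% against 38.7%, the ETS letters CCGGAAGT in 9.68% against 8.42%, TGACNNNGC in 12.9% against 14.8%, and the decamer of p53 in 6.45% against 6.92%. A match of letters does not show binding.

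The E2F matches of Brca2 and Xrcc6 are shown as examples, and both genes had ratios above 1. Those of Msh3 and Msh6, whose ratios were below 1, are not printed. E2f1 was itself counted as higher in AAOT liver, but its part in the values of genes with these letters was not tested. The 30-base stretches printed lie at chr5:150522442-150522471 and chr15:82016312-82016341, both on the plus strand of GRCm38 from RefSeq. The matches within them begin 168 and 46 bases before the start that the RefSeq promoter table uses. Brca2 and Xrcc6 have annotated ranges that open further upstream, so the matches also lie inside those ranges. The capitals mark the match, which in both is read on the other strand.
Brca2: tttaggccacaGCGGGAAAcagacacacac
Xrcc6: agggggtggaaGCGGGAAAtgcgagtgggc
The ratios of the 4 genes with these letters were 1.15 for Brca2, 0.939 for Msh3, 0.927 for Msh6 and 1.18 for Xrcc6. They lay on both sides of 1, and each interval includes equality.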

How the data were processed

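The deposited values are CPM, which the authors made from read counts and scaled per library, for 15526 gene symbols in 1 table. Trimmomatic 0.38, Bowtie2, RSEM, edgeR and the build mm10 are named in the submitters' processing notes without their roles. The annotation behind the counts is not given there. Per the labels' protocols, strand-marking libraries followed ribosomal RNA depletion of 200 ng RNA. The deposited columns sum to 1012463 and 987690, so they include a scaling factor. Each value is a whole multiple of 1 step per column within a relative tolerance of 1e-06, and dividing by the step gave the reads.

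Ratios are plain ratios of CPM, with an exact Clopper-Pearson 95% interval conditional on the summed reads, computed with scipy 1.17.1. Reads were treated as independent molecules, and the interval leaves out differences between mice, pools and preparations. With 1 library per group no count model was run. A gene with a mean under 1 CPM was left out of counts and medians. Of 186 listed genes 173 were in the table, 1 of them under another symbol. The members and lists were chosen with earlier results of these data known. Named are all members, the counted genes of the other repair and proliferation lists, the strain genes, and partners starting within 1000 bases on the opposite strand. A few cell type markers are named beside the sums of their lists. Gene positions are RefSeq's (GRCm38.p6). Strands and neighbouring starts came from GENCODE M21 (GRCm38), since the RefSeq table planned for neighbours has no strand. Annotated genes overlapping on the opposite strand were found for 11 members. Genes named for overlap were added after their values were seen. The result for 1 neighbouring gene is not reported here. Sums without single genes and intervals under other scalings were added after the values were seen. The alternatives were other scalings, expression floors, added constants, sizes and intervals. The steps were tested on simulated reads.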

Additional observations from a re-analysis of the deposited data

How the results depend on the processing

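The counts and medians of the members and of the further repair genes were recomputed under other scalings, expression floors, added constants, sizes and intervals. Counts by level, of other lists, of partners and of promoters were not. Over all alternatives tried, the number of members counted as higher was 0. The number counted as lower was 2 as reported, 1 on plain CPM of the recovered read totals, 1 when genes under 10 CPM were left out, 1 with a 99% interval and 0 with a 1.5-fold size. With no floor, 1 member (Mutyh, with 0 and 2 reads) passed 2-fold. The median log2 ratio of all members was -0.041 on plain CPM and -0.036 above 5 CPM. Above 10 CPM the median of the base excision genes changed sign, to 0.0036. The median of the translesion genes was 0.0089 on plain CPM. The median of the break repair genes became -0.034 above 5 CPM, -0.10 above 10 CPM and -0.11 as the log2 ratio of the summed CPM. The other scalings moved the median log2 ratio of all genes from -0.01 to at most 0.02. Of the recomputed ratios of single genes, 182 kept their side of the rule and 4 did not, those of Atr (0.808 on plain CPM) and of Xab2 (0.820, 0.809 and 0.809 under the other scalings). The list of further repair genes was added to these alternatives after its values were seen, and its 3 higher genes were 1 with a 1.5-fold size and 0 with a floor of 10 CPM or a 99% interval. Causes of these shifts were not tested. No paired analysis was possible because each group is 1 library. With 1 library per group, depth bounds only counting error. For genes with few reads the intervals are wide, as for Nthl1 (0.422 to 1.24).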
